A study of Drosophila melanogaster with 21 samples.

Results

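The glutathione S-transferases described here were taken as every probe set of the array that is annotated to a single gene whose current symbol is Gst followed by one of the class letters D, E, O, S, T or Z. That rule gave 36 of the 13966 probe sets that are not controls, and these represent 34 of the 10844 genes on the array with a single symbol. The RefSeq annotation of the fly genome (Release 6 plus ISO1 MT) names 35 such genes, and the missing one, GstT1, was not analysed here. Class D had 11 probe sets for 11 genes, class E had 14 for 14 genes, class O had 5 for 3 genes because GstO2 is represented by 3 probe sets, class T had 3, class Z had 2 and class S had 1.

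Glutathione S-transferases join the tripeptide glutathione to reactive, electrophilic compounds, which makes these compounds more soluble and ready for export. Classes D and E (delta and epsilon) occur in insects and other arthropods and are best known for their part in insecticide resistance and in clearing products of lipid peroxidation. The sigma enzyme GstS1 is abundant in fly muscle and conjugates the lipid peroxidation product 4-hydroxynonenal, omega enzymes reduce dehydroascorbate and mixed disulphides, and zeta enzymes act as isomerases in the breakdown of tyrosine.

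RNA came from the lower reproductive tract of adult Drosophila melanogaster females, dissected as the upper uterus with the sperm-storage organs and the accessory glands, and each of the 21 arrays was hybridised with RNA pooled from 12 to 40 tracts. All females were 3 days old and were kept at 23 °C (± 2 °C) in a cycle of 12 h of light and 12 h of dark. The study compared 5 unmated pools with mated pools dissected at the end of mating (0 h, 6 pools) and 3 h (4 pools), 6 h (3 pools) and 24 h (3 pools) later, and unmated females were dissected in between the mated ones. The labels name no strain, allele or treatment other than mating, and they do not say whether the pools of a group came from separate matings or cultures, so the p-values below measure only the spread between these pools. A pool of whole tracts cannot separate fewer cells of a type from less RNA per cell.

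The median signal of an array, in the arbitrary units of the deposited values, ran from 35.6 to 57.7. The mean correlation of an array with the others of its group, over probe sets above the median brightness, was lowest for the third 24 h array (0.794), the third 6 h array (0.819) and the second unmated array (0.830), and lay between 0.849 and 0.911 for the rest. The array numbers in the labels fall into 6 runs separated by gaps of more than 20. These runs are called array-number blocks here, although no label says what they stand for. Unmated arrays shared a block with 3 h and 24 h arrays but with none of 0 h or 6 h, so in the 0 h and 6 h contrasts block and mating state cannot be told apart within any block. The brightest of 5 spermatheca and parovaria markers was Send1 (geometric mean 11102.6 in unmated tracts). Of 6 fat body markers the brightest were Yp1 (28251.2), Yp2 (25921.5) and Yp3 (23976.1), and of 3 measured muscle markers Mlc2 (11678.5). The other genes of these lists were dimmer, so these values do not stand for each list as a whole. The 4 measured midgut markers summed to between 81.8 and 305.7 over all arrays, the 2 Malpighian tubule markers to between 8.7 and 84.9, and the 5 male seminal fluid genes to between 23.8 and 191.4.

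The brightness of the family differed widely between its members, but signals of different probe sets are not on one scale, so each probe set was set against the median of its own array. Across the family, 17 of the 36 probe sets were above the array median on all 21 arrays and 5 were below it on every array. Those 17 were GstD1, GstD3 and GstD9 in class D, GstE1, GstE3, GstE5, GstE6, GstE9, GstE11 and GstE12 in class E, GstO3 and 2 GstO2 probe sets in class O, GstS1, and the 3 theta genes GstT2, GstT3 and GstT4. GstD1, the delta enzyme that is used as a reporter of oxidative stress in flies, had a signal of 3516.4 to 10463.9 over the 21 arrays. GstE12 lay between 3102.1 and 6589.2, and its residual SD of 0.25 on the log2 scale was the smallest of the family. The 5 probe sets that never reached the array median were GstD6, GstD11, GstE2, GstE14 and GstZ2. GstE14, known as noppera-bo and needed for ecdysteroid synthesis in the prothoracic gland, had signals between 3.9 and 16.0. The median residual SD within groups was 0.57 for the members on the log2 scale, compared with 0.78 over all probe sets. Among probe sets above the median brightness, which hold 26 of the members, it was 0.53 for the members and 0.55 for all. With array-number block in the fit these 2 values were 0.41 and 0.40.

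The delta and epsilon genes sit in clusters of neighbouring genes. In the annotation all 11 delta genes lie together on chromosome arm 3R with 2 other genes among them, and 10 of the 14 epsilon genes lie together on 2R with 2 other genes among them. The 3 omega genes are neighbours on 3L around sepia (se), an omega relative that makes an eye pigment precursor, and GstZ1 and GstZ2 are neighbours on 3R. Probe sets of such close relatives may also share labelled RNA, which was not tested because the probe sequences were not used here. The bright GstD1 and the never-bright GstD6 and GstD11 belong to the same cluster, as do the bright GstE1 and GstE9 and the never-bright GstE2.

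No glutathione S-transferase passed an adjusted p of 0.05 at any time after mating. The test was limma on log2 signal over all 13966 probe sets, with Benjamini-Hochberg adjustment. Over all probe sets the same test called 0% at 0 h, 0.115% at 3 h, 1.84% at 6 h and none (0%) at 24 h, each against unmated, so 0 of 36 members does not stand out from that background. Between neighbouring times it called 0.0644% of all probe sets for 3 h against 0 h, 0.451% for 6 h against 3 h and 0.0358% for 24 h against 6 h, again with 0 members. The moderated F test of any change over the 5 groups called 0.344% of all probe sets and 0 members. The smallest adjusted p of a member was 0.0812, for GstO1 at 6 h, and the smallest of the F test was 0.179, for GstD5. The 95% interval of a member's log2 change had a median reach to either side of 0.74 at 0 h and 0.82 at 3 h. At 6 h and 24 h it was 0.89. These intervals are not adjusted for the number of tests, and passing the adjusted threshold takes larger changes. Even the largest member changes, 2.64 at 6 h and 3.08 at 24 h, were not called, so the lack of calls does not exclude changes above these reaches.

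**Figure D1:**
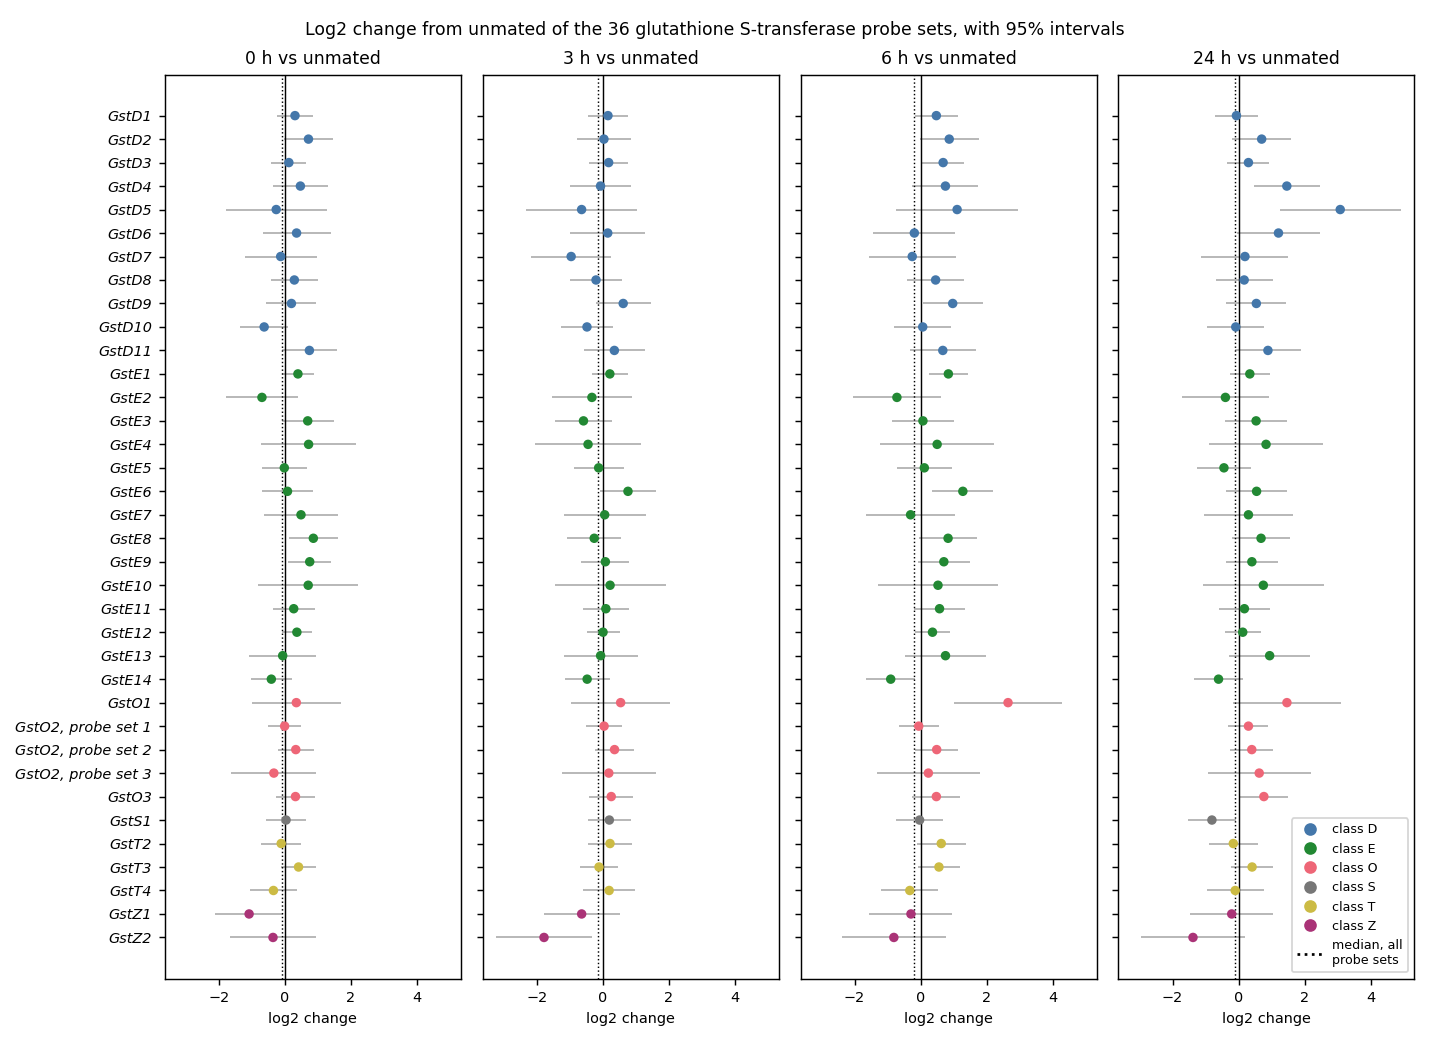
Log2 change from unmated (horizontal axis) of each of the 36 probe sets at 0, 3, 6 and 24 h after mating, with 95% intervals as grey lines, coloured by class. The dotted line is the median of all probe sets, and at 6 h 26 of the 36 points lie above 0, with GstO1 farthest to the right at 2.64, while at 24 h GstD5 is farthest at 3.08.

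Without adjustment, 6 members had an F test p under 0.05 (GstD4, GstD5, GstE3, GstE6, GstE8 and GstO1), a share of 16.7% beside 11.8% of all probe sets. At 0 h an unadjusted p under 0.05 was reached by 2 members in the direction of more signal (5.56%, against 2.43% of all probe sets) and by 1 in the direction of less (2.78%, against 4.99%). At 3 h the counts were 0 higher (background 1.73%) and 1 lower (background 5.91%). At 6 h there were 5 members higher (13.9%, against 6.33%) and 1 lower (2.78%, against 11.4%). At 24 h there were 3 members higher (8.33%, against 2.61%) and 1 lower (2.78%, against 5.24%). Between neighbouring times, 3 members were lower at 3 h than at 0 h (8.33%, against 4.07%) and 0 higher (background 2.83%), 3 were higher at 6 h than at 3 h (8.33%, against 5.35%) and 0 lower (background 6.37%), and 1 was higher at 24 h than at 6 h (2.78%, against 4.43%) and 0 lower (background 2.33%).

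The log2 changes of the members lay above those of the average probe set at each time. At 6 h the log2 change was above 0 for 26 of 36 members (72.2%), against 39.6% of all probe sets, and its median was 0.48 for the members and -0.21 for all probe sets. At 24 h it was above 0 for 26 of 36 (72.2%, against 42.7%), with medians of 0.37 and -0.10. At 0 h the count was 23 of 36 (63.9%, against 41.8%), with medians of 0.28 and -0.10, and at 3 h it was 21 of 36 (58.3%, against 38.9%), with medians of 0.05 and -0.14. The median signal was 50.4 to 57.7 on unmated arrays and 35.6 to 51.4 on mated ones, and centring each array on its median moved the 6 h median of all probe sets from -0.21 to 0.09. The members then stood above 0 in 28, 26, 30 and 29 of 36 cases at 0, 3, 6 and 24 h, while quantile normalisation gave 27, 23, 27 and 27. Among probe sets above the median brightness, the median change at 6 h was -0.05 over all 6983 and 0.48 over the 26 members. At 24 h these medians were 0.0021 and 0.32, with 50.1% and 73.1% above 0. Within block 3, the 1 array of 24 h against the 2 unmated ones gave a median of 0.042 over the members, with 21 of 36 above 0. Over all probe sets it was -0.051. The 1 array of 3 h in that block gave 0.14 over the members and -0.098 over all. The comparisons of the 4 times with unmated share the same unmated arrays.

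**Figure D2:**
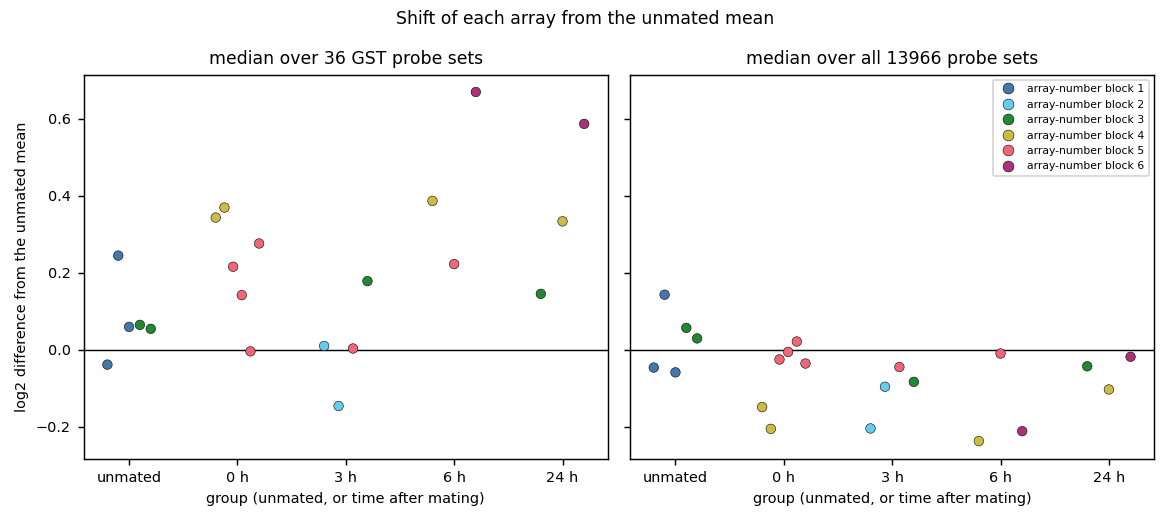
Each point is 1 array, and the vertical axis is the median log2 difference from the unmated mean over the 36 glutathione S-transferase probe sets (left) or over all 13966 probe sets (right), by group and coloured by array-number block. The third 6 h array (0.67) and the third 24 h array (0.59), both of block 6, are the highest on the left.

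Array by array, the median shift of the 36 members from the unmated mean was 0.39, 0.22 and 0.67 on the 6 h arrays and 0.14, 0.33 and 0.59 on the 24 h arrays. On the 0 h arrays it ran from -0.0044 to 0.37, on the 3 h arrays from -0.15 to 0.18, and on the unmated arrays from -0.039 to 0.24. The second unmated array therefore stood as high as the second 6 h array, and higher than the first 24 h array. In block 4 the shift was 0.34 and 0.37 on the 0 h arrays, 0.39 at 6 h and 0.33 at 24 h. In block 5 it was 0.22 at 6 h, 0.0030 at 3 h and -0.0044 to 0.28 at 0 h. In block 3 it was 0.064 and 0.054 on the unmated arrays, 0.18 at 3 h and 0.14 at 24 h. Block 6 held only the third 6 h and the third 24 h array. With block as a fixed term, the member medians were 0.18, 0.16, 0.29 and 0.10 at 0, 3, 6 and 24 h. Without the third 6 h array the 6 h median was 0.28 in place of 0.48, without the second 0 h array the 0 h median was 0.15 in place of 0.28, and without the first unmated array it was also 0.15. The 3 h median moved to -0.027 without the third 3 h array, to -0.0086 without the fourth and to -0.012 without the first unmated array.

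Class by class, the delta, epsilon, omega and theta medians at 6 h were all above 0 and the sigma and zeta values were not. The median log2 change at 6 h was 0.67 for delta (9 of 11 above 0), 0.51 for epsilon (11 of 14), 0.47 for omega (4 of 5) and 0.55 for theta (2 of 3), while GstS1 had -0.034 and the zeta genes had a median of -0.55 (0 of 2). At 24 h the medians were 0.54 for delta (9 of 11), 0.37 for epsilon (11 of 14), 0.62 for omega (5 of 5), -0.10 for theta (1 of 3) and -0.79 for zeta (0 of 2). At 0 h they were 0.29 for delta, 0.38 for epsilon, 0.32 for omega, -0.11 for theta and -0.72 for zeta. At 3 h delta (0.034) and epsilon (-0.030) were close to 0, omega was at 0.25 with 5 of 5 above 0, theta at 0.19 and zeta at -1.21. Differences between the classes were not tested, and 3 of the 5 omega values come from GstO2 alone.

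At 6 h after mating, 5 members lay above all unmated arrays on all 3 arrays (13.9%, against 4.71% of all probe sets), namely GstE1, GstE6, GstE8, GstO1 and GstT2, and 1 lay below, GstE14 (2.78%, against 6.28%). At 24 h, 6 members lay above all unmated arrays (16.7%, against 2.06%), namely GstD4, GstD11, GstE8, GstE13, GstO1 and GstO3, and 0 lay below (background 2.79%). At 0 h the counts were 0 above (background 0.394%) and 0 below (background 0.759%), and at 3 h they were 0 above (background 0.723%) and 0 below (background 1.75%). Leaving out 1 array at a time, an alternative chosen after seeing the data, gave 5 to 8 members above at 6 h and 6 to 9 at 24 h. The background share rose as well, to between 5.16% and 7.8% at 6 h and between 2.48% and 6.19% at 24 h. The count of 8 at 6 h came without unmated replicate 2, without 6 h replicate 1 or without 6 h replicate 2, where the background was 6.5%, 7.75% and 7.6%. The count of 9 at 24 h came without 24 h replicate 1, where it was 4.75%. GstE8 and GstO1 were in both sets, and both comparisons use the same 5 unmated arrays.

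GstO1, an omega enzyme, had the smallest adjusted p of the family. Its signal in the 5 unmated pools was 24.0, 25.7, 5.5, 38.0 and 22.0. At 0 h the 6 pools had a lowest value of 5.6, a median of 33.15 and a highest value of 77.7, and at 3 h the 4 pools gave 57.8, 15.4, 11.5 and 63.3. At 6 h the signals were 201.9, 92.6 and 96.9, and at 24 h they were 48.8, 38.8 and 82.2. The 6 h values lay above every value of the other groups, and the 24 h values lay above the unmated ones, the nearest pair being 38.8 and 38.0. Compared with unmated pools, GstO1 was 2.64 ± 0.78 (SE) higher in log2 at 6 h, or 6.24-fold, with an adjusted p of 0.0812 by limma, and it was 1.46 at 24 h. Against 3 h, the 6 h level was higher by 2.10 ± 0.81 on the log2 scale (adjusted p 0.294 by limma).

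Oocyte and germline transcripts were also at their highest at 6 h. The 6 measured oocyte and germline markers (pgc, swa, tor, osk, bcd and vas) were all above their unmated level at 6 h, with a median log2 change of 3.37, and 3 of them rose past the threshold, swa by 4.40 (adjusted p 0.0195 by limma), pgc by 3.58 (0.0279) and tor by 2.07 (0.0394). Their summed signal was 71.6 to 159.7 in unmated pools, 53.6 to 611.7 at 0 h, 63.1 to 182.0 at 3 h, 419.4 to 1919.4 at 6 h and 100.6 to 572.1 at 24 h. The 5 highest sums were those of the first and second 6 h pools, 1919.4 and 1126.5, the last 0 h pool, 611.7, the third 24 h pool, 572.1, and the third 6 h pool, 419.4. In that order, the GstO1 signals of these pools were 201.9, 92.6, 40.6, 82.2 and 96.9. Among the other pools, the second 0 h pool had the lowest sum of all, 53.6, with GstO1 at 77.7. The fourth 3 h pool had a sum of 63.1 with GstO1 at 63.3. The unmated pools, at sums of 71.6 to 159.7, had GstO1 at 5.5 to 38.0. The part of oocytes in the GstO1 values was not tested. On log2(signal + 16), a scale that damps dim values, the GstO1 change at 6 h was 1.89 with an adjusted p of 0.0241 by limma, and with the log2 3′/5′ ratio of the control probe sets, a measure of RNA integrity, in the model it was 3.04 with an adjusted p of 0.0330, whereas with array-number block as a fixed term the adjusted p was 0.478.

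**Figure D3:**
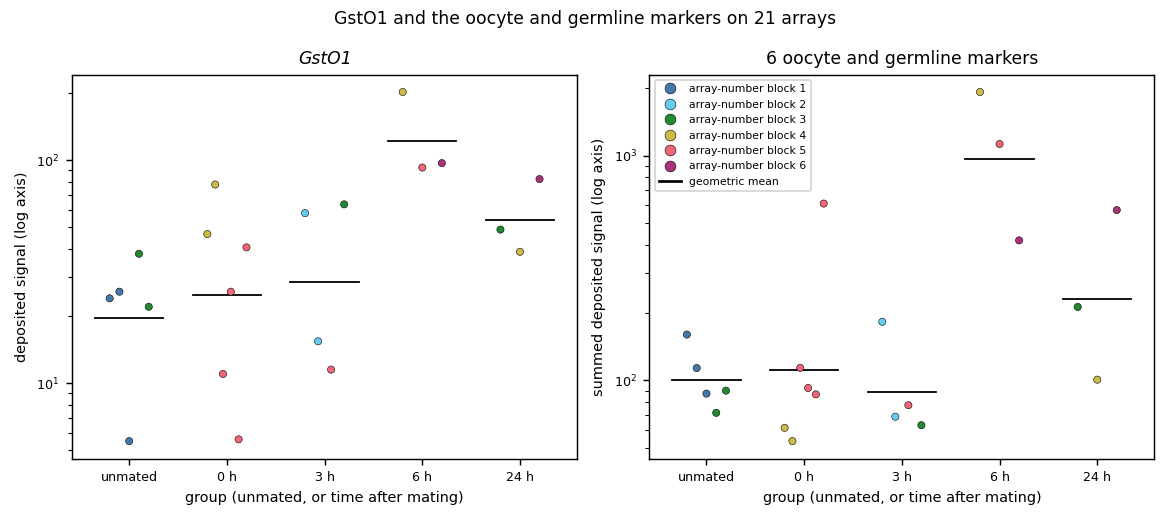
Signal of GstO1 (left) and summed signal of 6 oocyte and germline markers (right) on each array, on log axes, by group. Points are arrays coloured by array-number block and the lines are geometric means, and all 3 of the 6 h arrays are above all unmated arrays in both panels, at 92.6 to 201.9 on the left and 419.4 to 1919.4 on the right.

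The other omega genes had smaller differences. GstO3 had 1105.5, 1039.2, 1155.8, 649.5 and 620.9 in unmated pools. At 0 h the lowest, median and highest values were 886.4, 1097.3 and 1366.4, and at 3 h the pools gave 892.0, 1032.9, 1539.9 and 866.6. They were 748.0, 1227.7 and 2004.2 at 6 h and 1406.8, 1171.3 and 2046.5 at 24 h. The 24 h pools all lay above the unmated ones (the nearest values were 1171.3 and 1155.8), with a log2 change of 0.76 ± 0.35 (SE) and an adjusted p of 0.616 by limma. The unmated pools themselves split by array-number block, with the 3 of block 1 at 1039.2 or above and the 2 of block 3 at 649.5 or below. The 3 GstO2 probe sets had log2 changes at 6 h of -0.061, 0.48 and 0.23 and at 24 h of 0.30, 0.40 and 0.62, and none was past the threshold.

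In the delta class, GstD5 had the largest difference of the family. Its unmated signals were 13.2, 40.5, 5.6, 5.3 and 13.4, and at 0 h they ran from 3.5 over a median of 6.75 to 43.2. At 3 h the pools gave 19.0, 2.5, 5.5 and 11.8, at 6 h 8.4, 26.4 and 70.1, and at 24 h 228.0, 106.2 and 38.9. The first and second 24 h pools were far above all unmated ones, while the third lay just under the highest unmated value. The log2 change at 24 h was 3.08 ± 0.88 (SE), or 8.43-fold, with an adjusted p of 0.386 by limma. It was 2.47 without 24 h replicate 1 and 3.74 without 24 h replicate 3, and the alternatives ran from 2.00 to 4.46. Within array-number block 3, which held 1 array of 24 h and 2 unmated ones, the difference was 4.76. GstD5 was above the array median on 4 of the 21 arrays and had the largest residual SD of the family, 1.30.

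GstD4, the neighbour of GstD5 in the cluster, was also highest at 24 h. Its signal was 30.6, 33.9, 27.1, 13.2 and 17.6 in unmated pools, 14.2 to 50.9 with a median of 35.15 at 0 h, and 41.2, 9.2, 34.6 and 17.8 at 3 h. At 6 h the pools gave 38.5, 29.1 and 51.9 and at 24 h 66.1, 55.6 and 69.4. All 24 h values lay above those of every other group. The log2 change at 24 h was 1.46 ± 0.48 (SE), with an adjusted p of 0.481 by limma. Within block 3, with 1 array of 24 h and 2 unmated ones, it was 2.12. Those 2 unmated arrays had the lowest unmated values, 13.2 and 17.6. The unmated arrays of block 1 lay above them without overlap, by 1.00 in log2. GstD6, the other neighbour of GstD5, had a log2 change of 1.21 at 24 h, on signals of 8.1, 16.1 and 31.3 against 3.1 to 13.2 in unmated pools, so these groups overlapped.

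The remaining delta genes had log2 changes under 1 in size. GstD2, which lies between GstD1 and GstD3 in the cluster, had 54.5, 109.3, 72.7, 64.3 and 36.7 in unmated pools, 70.7 to 158.8 with a median of 105.65 at 0 h and 63.3, 99.5, 54.1 and 52.0 at 3 h. It had 87.3, 72.2 and 243.0 at 6 h and 114.0, 62.5 and 152.4 at 24 h, and its groups overlapped throughout. GstD9 had 53.0, 146.1, 90.2, 137.6 and 206.5 in unmated pools, 62.0 to 221.8 with a median of 138.8 at 0 h and 205.5, 232.1, 147.9 and 135.6 at 3 h. Its 6 h signals were 205.0, 189.8 and 290.4 and its 24 h signals 160.1, 124.9 and 230.3, which gave a log2 change at 6 h of 0.97 ± 0.44 (SE) with an adjusted p of 0.249 by limma. GstD3 had a log2 change of 0.68 at 6 h (adjusted p 0.248 by limma). For GstD1 the changes were 0.30, 0.16, 0.47 and -0.066 at 0, 3, 6 and 24 h, and its 95% interval at 6 h ran from -0.18 to 1.13. GstD7, GstD8, GstD10 and GstD11 had changes between -0.96 and 0.89 over the 4 times.

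In the epsilon class, GstE6 and GstE1 had the largest log2 changes above 0 at 6 h. GstE6 had signals of 269.0, 622.1, 268.5, 426.8 and 495.7 in unmated pools, 211.2 to 835.1 with a median of 404.05 at 0 h and 812.8, 606.8, 530.2 and 761.6 at 3 h. Its 6 h signals were 1272.8, 689.5 and 988.8 and its 24 h signals 490.8, 625.0 and 618.5. The 6 h pools stood above all unmated pools, with 689.5 against 622.1 as the nearest pair, and their log2 change came to 1.28 ± 0.44 (SE) with an adjusted p of 0.132 by limma. With the 3′/5′ ratio of the controls in the model it was 1.53 with an adjusted p of 0.0396 by limma. That was the smallest adjusted p of the alternatives, which ran up to 0.611, with changes from 0.98 to 1.57. GstE6 and GstO1 were the only members that any of the alternatives brought past the threshold. The 3′/5′ log2 ratio averaged 2.82 ± 0.73 (SD, n = 3) at 6 h and 3.90 ± 2.01 (SD, n = 5) in unmated pools. It ran from 1.89 to 6.62 over the 21 arrays. The unmated arrays of block 1 had 1.93 to 3.84 and those of block 3 had 5.08 and 6.62.

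GstE1 had 480.4, 466.2, 618.5, 473.6 and 443.3 in unmated pools, 472.4 to 821.0 with a median of 674.7 at 0 h and 535.9, 441.3, 613.9 and 732.9 at 3 h. At 6 h its signals were 815.1, 766.9 and 1091.5 and at 24 h 463.7, 823.3 and 635.0. The 6 h pools lay above all unmated and all 3 h pools. In log2 the 6 h minus unmated difference was 0.84 ± 0.29 (SE), or 1.79-fold, with an adjusted p of 0.129 by limma.

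GstE8 and GstE3 had their highest log2 group mean at 0 h and their lowest at 3 h. Within the 0 h group both were higher on the 2 arrays of block 4 than on the 4 of block 5, without overlap. The log2 differences were 0.72 for GstE8 and 1.07 for GstE3, and the top rank of 0 h depends on the block 4 arrays. GstE8 had 83.3, 36, 77.8, 87.0 and 81.2 in unmated pools, 81.6 to 199.1 with a median of 132.55 at 0 h, 46.9, 33.2, 59.1 and 124.9 at 3 h, 105.8, 100.2 and 178.9 at 6 h and 96.2, 91.2 and 158.6 at 24 h. The 6 h and 24 h pools lay above all unmated pools, and the 0 h pools did so in 5 of 6 cases. The log2 change was 0.86 ± 0.35 (SE) at 0 h (adjusted p 0.627 by limma), and the 3 h minus 0 h difference was -1.12 ± 0.38 (adjusted p 0.576), neither past the threshold. GstE3 had 899.7, 562.9, 1032.5, 1113.5 and 891.9 in unmated pools, 874.8 to 2618.9 with a median of 1390.05 at 0 h, 363.4, 308.5, 880.4 and 1183.0 at 3 h, 955.0, 614.2 and 1323.3 at 6 h and 1039.7, 1324.7 and 1473.3 at 24 h. Its 3 h values formed a low pair, both of block 2, and a pair at 880.4 and 1183.0, beside 562.9 to 1113.5 in unmated pools. The 3 h minus 0 h difference was -1.28 ± 0.40 (SE) with an adjusted p of 0.538 by limma, and within block 5, with 1 array of 3 h and 4 of 0 h, it was -0.33.

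Among the other epsilon genes, GstE9 had a log2 change of 0.75 at 0 h (adjusted p 0.636 by limma), and GstE14 one of -0.91 at 6 h (adjusted p 0.178), where its 3 signals of 4.4, 4.2 and 4.0 lay just below the lowest unmated value of 4.5. GstE14 was below the array median on every array, so this difference lies among the dimmest signals of the array. The change of GstE13 at 24 h was 0.94, on signals of 163.0, 131.6 and 196.8 against 58.6 to 111.1 in unmated pools. GstE2, GstE4, GstE5, GstE7, GstE10, GstE11 and GstE12 had changes between -0.72 and 0.83 over the 4 times.

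GstS1, the single sigma gene, was lowest at 24 h. It had 551.0, 459.7, 507.2, 337.4 and 297.1 in unmated pools, 309.1 to 575.0 with a median of 438.05 at 0 h and 687.3, 645.3, 430.4 and 278.8 at 3 h. Its signals were 368.2, 473.1 and 392.9 at 6 h and 229.5, 179.5 and 332.3 at 24 h. The 24 h pools lay below all 6 h pools but overlapped the unmated ones. The log2 change at 24 h was -0.81 ± 0.34 (SE) with an adjusted p of 0.590 by limma, and within block 3 it was -0.46. The spread of GstS1 followed the blocks closely, since its residual SD of 0.42 dropped to 0.19 with block in the fit. Of the 3 measured muscle markers, Mlc2 had a log2 change of -0.038 at 24 h, Tm2 of -0.11 and up of 0.22, and their summed signal was 11901.1 to 16092.0 at 24 h and 10703.2 to 27570.7 in unmated pools.

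The theta genes had log2 changes between -0.35 and 0.62 over the 4 times. GstT2 had 86.2, 97.2, 97.4, 91.6 and 96.9 in unmated pools, 48.2 to 147.8 with a median of 83.55 at 0 h, 122.8, 94.6, 93.8 and 129.7 at 3 h, 254.6, 107.7 and 109.5 at 6 h and 96.6, 93.7 and 65.2 at 24 h. Its unmated values were tight and the 6 h values lay above them, with 1 of the 3 far from the others, and the 6 h minus unmated difference was 0.62 in log2. GstT3 had 372.8, 183.5, 411.9, 282.2 and 317.1 in unmated pools, 298.6 to 475.9 with a median of 413.1 at 0 h, 224.4, 326.0, 342.2 and 242.1 at 3 h, 401.9, 383.1 and 564.9 at 6 h and 435.1, 311.4 and 475.6 at 24 h. Its 6 h pools lay above all 3 h pools, with a difference of 0.67 ± 0.31 (SE) on the log2 scale and an adjusted p of 0.417 by limma. GstT4, with changes between -0.35 and 0.19, had unmated signals from 355.6 to 2314.0.

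Both zeta genes had a log2 change below 0 at all 4 times, and none passed the threshold. The sign did not hold under every alternative. At 6 h the change ran from -0.73 to 0.27 for GstZ1 and from -1.32 to 0.10 for GstZ2. For GstZ2 at 0 h it ran from -1.07 to 0.0023. GstZ1, which like its neighbour belongs to the maleylacetoacetate isomerase group, had 180.1, 174.9, 113.5, 185.8 and 208.8 in unmated pools, 35.4 to 230.1 with a median of 65.4 at 0 h, 93.9, 66.7, 115.1 and 192.5 at 3 h, 250.9, 166.1 and 62.9 at 6 h and 144.7, 147.9 and 146.7 at 24 h. Its change at 0 h was -1.08 ± 0.50 (SE) with an adjusted p of 0.666 by limma. GstZ2 had 8.3, 25.0, 43.5, 28.6 and 25.3 in unmated pools, 5.1 to 34.7 with a median of 32.2 at 0 h, 5.7, 4.3, 12.4 and 6.7 at 3 h, 23.0, 26.6 and 3.7 at 6 h and 14.3, 6.0 and 8.1 at 24 h. Its change was -1.78 ± 0.69 (SE) at 3 h (adjusted p 0.569 by limma) and -1.38 at 24 h, at signals that never reached the array median.

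**Figure D4:**
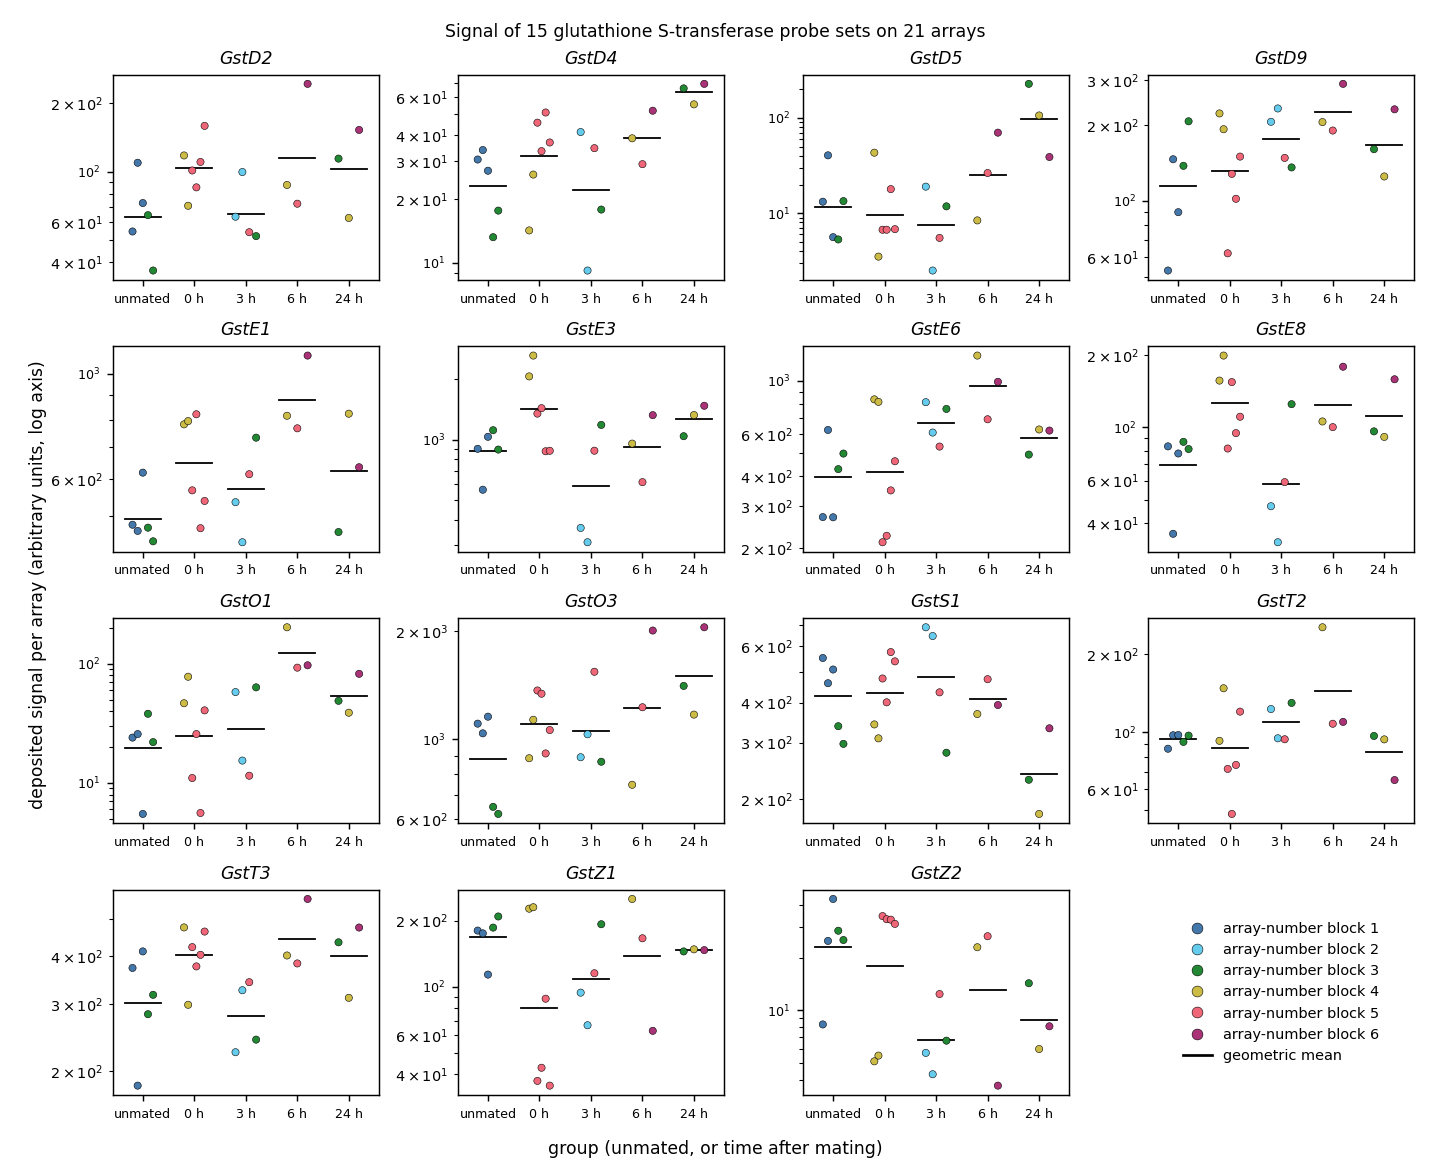
Signal on each array (log axis) of the 15 probe sets described with all their values, by group, with points coloured by array-number block and lines at the geometric mean. GstO1 is highest at 6 h (92.6 to 201.9), GstD4 at 24 h (55.6 to 69.4), and the 0 h points of GstZ1 and GstZ2 separate by block.

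The 0 h arrays of the zeta genes fell into separate clusters by array-number block. GstZ1 had 226.6 and 230.1 on the 2 arrays of block 4 and 37.2, 42.7, 88.1 and 35.4 on the 4 of block 5, and GstZ2 had 5.1 and 5.5 on block 4 and 31.3 to 34.7 on block 5. The log2 difference, block 4 minus block 5, was 2.28 for GstZ1 and -2.64 for GstZ2, so the neighbours differed in opposite directions. GstE7 (1.87), GstO1 (1.92), GstE6 (1.48) and the third GstO2 probe set (2.48) also separated. In all, 12 of 36 members were higher in block 4 without overlap (33.3%, against 13.7% of all probe sets) and 5 were lower (13.9%, against 23.6%). The median size of the difference was 0.62 for the members and 0.62 for all probe sets. Among the unmated arrays, 6 members were higher in block 1 than in block 3 without overlap (16.7%, against 15.1%) and 4 were lower (11.1%, against 16.9%). With block as a fixed term the residual SD of the members had a median of 0.45 in place of 0.57.

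**Figure D5:**
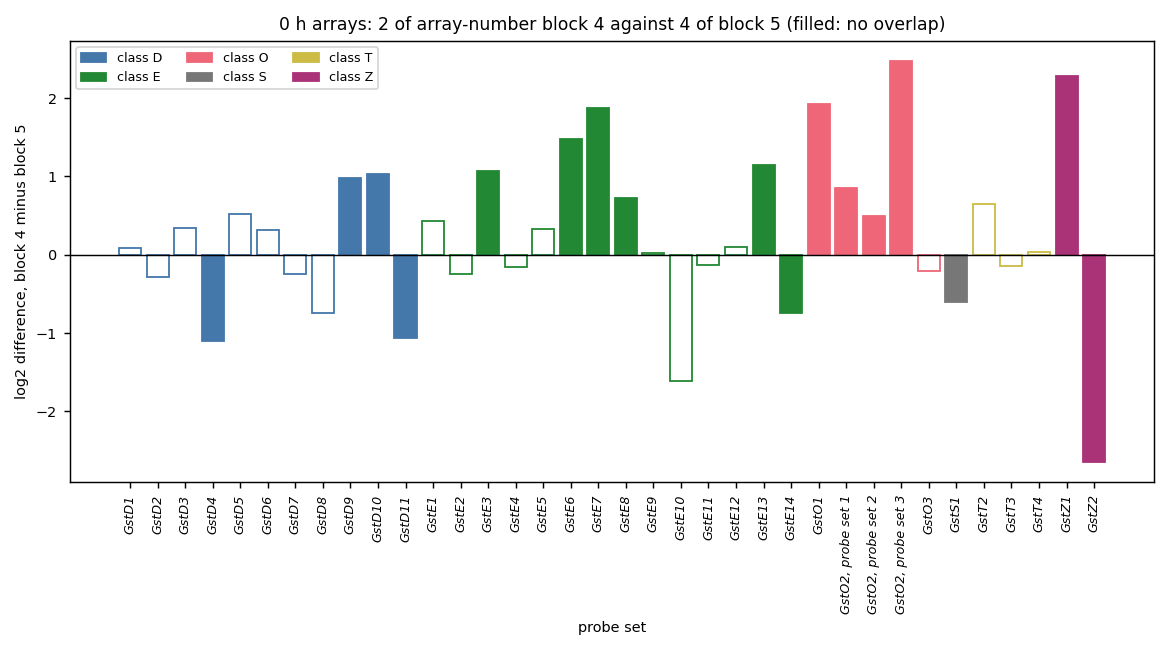
Log2 difference between the 2 arrays of block 4 and the 4 arrays of block 5 within the 0 h group, for each of the 36 probe sets, with filled bars where the arrays of the blocks do not overlap. The bars of GstZ1 (2.28) and GstZ2 (-2.64) point in opposite directions.

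Among 29 measured genes that work with the transferases or are related to them, 0 passed the threshold by limma against unmated at any time. At an unadjusted p under 0.05, 5 were higher at 6 h, where 6.33% of all probe sets were, and 2 were lower, where 11.4% were. At 3 h 2 were lower, against 5.91% of all probe sets, and at 0 h and 24 h 0 reached that p. Of the genes that make or break down glutathione, 3 of 5 listed were measured and 0 passed in either direction at any time against unmated. The 3 changes at 6 h were 0.83 for Gclm, the regulatory subunit of the enzyme that begins glutathione synthesis, 0.82 for Ggt-1, a gamma-glutamyl transpeptidase that breaks glutathione down, and 0.10 for Gclc, the catalytic subunit. Of the 11 measured thioredoxin, glutaredoxin and peroxidase genes, 0 passed, and the median change at 6 h was 0.28 with 8 of 11 above 0. The far value in that list was dhd, a thioredoxin of the female germline, at 7.20 at 6 h (adjusted p 0.0555 by limma) and 3.80 at 24 h, which is itself a germline transcript, while TrxT had -0.94 and Grx1 0.67 at 6 h. Of superoxide dismutase and catalase genes, 3 were measured and 0 passed, with changes at 6 h of 0.75 for Sod2, 0.41 for Sod3 and -0.27 for Cat.

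The regulators and export pumps measured gave no call. The transcription factor cnc, which in flies turns on GstD1 and other transferases when Keap1 releases it, had a log2 change of -2.04 at 6 h (adjusted p 0.201 by limma), its partner maf-S -0.077 and Keap1 -0.42, and 0 of the 3 passed at any time. The 3 measured transporters of the MRP family, which export glutathione conjugates, had changes at 6 h of -1.49 for MRP, -0.93 for Mrp4 and -0.37 for Mrp5, and 0 passed. Among 6 relatives outside the name rule 0 passed, with 4 of 6 above 0 at 6 h. They included Su(P) at 1.01 (adjusted p 0.0826 by limma), the microsomal transferase Mgstl at 0.44 and the omega relative se at 0.42.

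Of 34 marker genes of tissues that the dissection could hold, 4 passed the threshold by limma at 6 h (11.8%, against 1.84% of all probe sets), the 3 germline genes above and Send2. At an unadjusted p under 0.05 by limma, 7 of the 34 markers were higher at that time, where 6.33% of all probe sets were. These were the 6 germline markers and Send2. Another 5 of the 34 were lower (lz, Send1, apolpp, Hml and eater), where 11.4% of all probe sets were. In the list for spermatheca and parovaria, Send2, a spermathecal protein, rose by 7.21 at 3 h and 6.88 at 6 h on the log2 scale, 1 call at each of these times among the 5 genes, while lz had -2.33 and Send1 -0.92 at 6 h. In the fat body list of 6 genes 0 passed, with Lsp2 at 0.32, apolpp at -1.30 and Yp2 at -0.068 at 6 h. In the muscle list 0 of 3 passed, in the midgut list 0 of 4 (mex1, -1.24, alphaTry, -0.61 and Jon65Aiii, -0.20 at 6 h), in the Malpighian tubule list 0 of 2 (NaPi-T, -1.26 and Irk3, -0.25) and in the hemocyte list 0 of 3 (eater, -2.72, Hml, -1.03 and NimC1, -0.82). In the male seminal fluid list 0 of 5 passed, with Acp36DE at -1.48, Ebp at -0.67 and Acp62F at 0.83 at 6 h. The part of these tissues in the values of the transferases was not tested.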

How the data were processed

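Affymetrix DrosGenome1 arrays, of 1 colour, were read from the deposited series table, 21 arrays with 14010 probe sets, of which 44 controls were left out. The deposited values are linear probe-set intensity values. Per the submitters' processing notes RMA was used, but no version is given, and because the values are not on a log scale and the quartiles differ between arrays, the summary step is taken as unknown. The mean of an array after trimming 2% at each end was 150.03 or 150.04 on all 21 arrays. The deposited values had thus been scaled to a common trimmed mean. Gene symbols came from the platform annotation, updated through the gene identifier to RefSeq (12394 of 12443 probe sets with 1 symbol matched; 327 had several symbols and 1196 none). Here log2 of the deposited intensity was taken without a pseudocount and fitted with limma 3.58.1 (R 4.3.3), with all 5 groups in 1 model and 2-sided tests. The prior degrees of freedom were 3.67. The method was tested on simulated data. No scanner files were used, so background and saturation are unknown. Precision is set by the number of arrays. Replicate numbers follow the order of the samples and pair nothing. At most 0.507% of values were identical between arrays of a group, so none was counted as a duplicate. Members, gene lists and tests were chosen with earlier results of these data known.

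Values of single arrays, with 0 h as lowest, median and highest, are given for the 2 members of each class with the smallest F test p (4 in classes D and E), and other members are named where a change from unmated exceeded 1 on the log2 scale. Other members are named where a count or an unadjusted p called for it, after their values were seen. From each list of related genes or markers, the 3 with the smallest F test p are named. Alternatives were quantile normalisation, median centring, log2(intensity + 16), only probe sets above the median brightness, only the groups compared, array-number block as a fixed or a random term, a variance trend with robust moderation, the 3′/5′ ratio of control probe sets in the model, and each array left out in turn.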

Additional observations from a re-analysis of the deposited data

Results flagged for a closer look

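Among 108 sets of values (36 probe sets in the unmated, 0 h and 3 h groups), 9 held an array whose gap to the nearest other exceeded the critical share of the range in Dixon's test on log2 signal. Chance alone gives about 1 in 20. The second unmated array held 3 of them, at 36 for GstE8 (others 77.8 to 87.0), 691.8 for GstE9 (others 1422.4 to 1868.9) and 672.5 for GstE11 (others 197.1 to 276.6), and the third unmated array 2, at 618.5 for GstE1 (others 443.3 to 480.4) and 5.5 for GstO1 (others 22.0 to 38.0). The fourth 0 h array held 2, at 427.5 for GstE11 (others 330.9 to 361.3) and 19.7 for GstE13 (others 83.5 to 153.9). At 3 h the fourth array had 45.0 for GstD8 (others 99.6 to 115.4) and the second had 50.8 for GstE10 (others 5.0 to 7.3).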

How the results depend on the processing

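The count of members past an adjusted p of 0.05 (limma, Benjamini-Hochberg) was 0 in each of the 7 contrasts and in the F test, and it stayed 0 under all alternatives but 2. At 6 h it was 1 on log2(intensity + 16), namely GstO1, and 2 with the 3′/5′ ratio of the controls in the model, namely GstO1 and GstE6. The cause was not tested. Over all probe sets the 6 h calls numbered 257, against 507 on log2(intensity + 16), 392 with the ratio covariate, 427 among brighter probe sets or with a variance trend, 60 with only the groups compared, 65 with block as a random term and 5 with block as a fixed term. With single arrays left out they ran from 95 to 398, and they moved by over 1.5 times without 6 h replicate 3 (95), unmated replicate 3 (132), unmated replicate 1 (157), unmated replicate 4 (161) or 24 h replicate 3 (398). The median log2 change of the members stayed above 0 at 0, 6 and 24 h under every alternative. It was 0.26 at 3 h with median centring and 0.10 at 24 h with block as a fixed term. Leaving out single arrays gave 0 members past the threshold in every case, and medians of 0.15 to 0.28 at 0 h, -0.027 to 0.064 at 3 h, 0.28 to 0.49 at 6 h and 0.29 to 0.43 at 24 h. No paired analysis was possible because the numbers in the labels' pool names are shared by fewer than 2 pools of any pair of groups. Array-number block is a grouping inferred from gaps in the array numbers, not a pairing.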
